A study of Homo sapiens with 12 samples.

Results

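The ZNF genes are the human genes named for a zinc finger and a serial number, and 125 of them were well expressed in these cells. They were chosen by symbol and level, as every gene named ZNF plus a number (with or without 1 closing letter) whose mean normalized level over all samples was at least 500. They make up 26.2% of the 477 ZNF genes and belong to the 8180 genes, of 23292 listed, that reached that level. The level therefore chose the members, and the levels below are a description with no test. The description by which they were chosen also calls these transcripts short-lived and mostly poor in G and C. Transcript lifetime was not measured, and the GC content measured here goes against the second remark.

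The cells were HEK293T, a human embryonic kidney line that carries the SV40 large T antigen, and the growth protocol also calls them HEK293. All 4 groups of 3 samples were wild-type cells treated for 6 h, with DMSO as the vehicle in the first group. The other groups received 10 µM AA263, AA263yne or AA263-5. AA263 is a phenylhydrazone that acts on protein homeostasis in the endoplasmic reticulum, and turning on ATF6, a stress-responsive transcription factor, is among its known effects. In AA263yne an alkyne-bearing group replaces the B-ring nitro group, and AA263-5 is a further analog. PolyA-enriched, strand-specific RNA libraries of the 12 samples were sequenced. Each level used here is the authors' mean over all 12 samples, so it carries no SD and no n, and vehicle and compound samples share it. Levels by sample, and the compounds against vehicle, were not analysed here.

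A C2H2 zinc finger is a short loop in which a pair of cysteines and a pair of histidines hold a zinc ion. Fingers are usually strung together by a conserved linker, and each reads a few bases of DNA. Many ZNF proteins also carry a KRAB domain, which recruits TRIM28 and, through it, the histone methyltransferase SETDB1 and HP1 proteins to silence DNA, above all transposable elements. Others carry a SCAN domain, which pairs proteins with each other. A smaller number act outside DNA binding, in ribosome biogenesis, ribosome quality control or mitosis. In humans many KRAB genes lie in tandem arrays on chromosome 19.

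The range of base composition in the family can be read from single fingers. Shown here, each with the 4 codons of its zinc-binding cysteines and histidines in capitals, are 6 stretches of 78 bases that each encode a finger of a C2H2 member and the linker that follows it. They were taken from 64 members with a finger of the strictest spacing directly followed by the linker. Among those 64 they belong to the genes with the lowest coding GC content (ZNF107 and ZNF92), the highest coding GC content (ZNF787 and ZNF865) and the highest level per kb (ZNF768 and ZNF358). The stretches read 5′ to 3′ on the coding strand of GRCh38.
ZNF107: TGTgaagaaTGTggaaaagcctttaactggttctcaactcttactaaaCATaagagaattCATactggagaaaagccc
ZNF92: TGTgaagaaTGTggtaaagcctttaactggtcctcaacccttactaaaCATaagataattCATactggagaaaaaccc
ZNF787: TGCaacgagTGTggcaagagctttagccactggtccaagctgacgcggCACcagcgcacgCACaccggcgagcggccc
ZNF865: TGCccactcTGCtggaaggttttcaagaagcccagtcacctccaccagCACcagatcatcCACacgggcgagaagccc
ZNF768: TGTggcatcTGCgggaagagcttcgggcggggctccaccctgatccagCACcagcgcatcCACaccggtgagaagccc
ZNF358: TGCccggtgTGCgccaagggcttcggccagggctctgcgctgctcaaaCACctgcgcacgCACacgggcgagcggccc

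All 6 stretches are coding sequence. The ZNF107 stretch lies at chr7:64706704-64706781 and the ZNF92 stretch at chr7:65398721-65398798, both on the plus strand. The ZNF787 stretch lies at chr19:56088893-56088970 on the minus strand and the ZNF865 stretch at chr19:55614672-55614749 on the plus strand. The ZNF768 stretch lies at chr16:30525276-30525353 on the minus strand and the ZNF358 stretch at chr19:7520035-7520112 on the plus strand. The ZNF107 and ZNF92 stretches had the same base at 73 of 78 positions and the same amino acid at 24 of 26. The ZNF107 and ZNF787 stretches had the same base at 44 of 78 positions and the same amino acid at 16 of 26. G or C stood at the last codon position in 26.9% of the codons of the ZNF107 finger and in 92.3% of those of the ZNF787 finger. The zinc-binding histidine codons show it directly, as CAT in ZNF107 and ZNF92 and as CAC in the other stretches.

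A small number of genes held much of the family's signal. The summed mean level of the 125 members was 82.2% of that of all 477 ZNF genes and 0.694% of that of all genes. The first 17 members were enough to reach 50% of the members' sum, and the first 5 held 29.7% of it. The median mean level was 1104, with 69 members at 1000 or more and 8 at 5000 or more. By mean level ZNF503 came first at 26335, followed by ZNF207 at 21361, ZNF768 at 11484, ZNF703 at 8509 and ZNF598 at 7754. Because a longer transcript yields more reads at the same abundance, levels of single genes are ranked against each other below after division by the length of the canonical transcript in kb. The minimum, the level bins and the mean levels named as such are not divided by length.

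Per kb, the members spanned from 39.4 to 8217, a 209-fold range, with a median of 310. For comparison, the median of all genes at or above the minimum level was 557 per kb, and that of the ZNF genes below it was 26.2 per kb. The larger part of the members, 102 of 125, lay between 100 and 1000 per kb, with 13 at or above and 10 below. The plot of levels by rank shows that the family has no gap at the minimum of 500. The members just above it were ZNF652 (mean level 505), ZNF513 (507), ZNF446 (513), ZNF691 (517) and ZNF394 (519). The genes just below were ZNF561 (494), ZNF217 (489), ZNF212 (488), ZNF16 (485) and ZNF32 (483). Of the genes below, 54 had a mean level under 10.

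**Figure D1:**
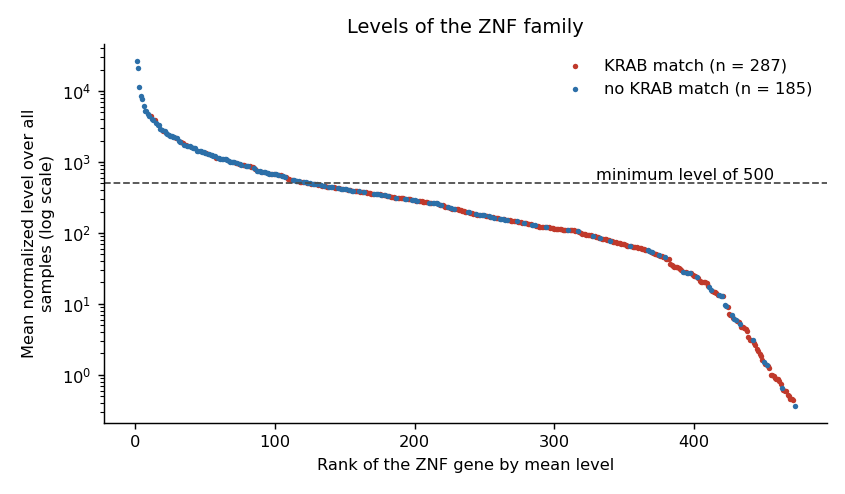
Mean normalized level over all samples (vertical axis, log scale, no unit) against the rank of each ZNF gene by that level (horizontal axis). Each point is a gene with an annotated protein, red with a KRAB match (n = 287) and blue without (n = 185), and the dashed line is the minimum of 500. The levels start at 26335 and show no gap at the dashed line, and blue points fill most of the top end.

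ZNF503 had the highest level per kb, 8217, above 96.6% of all genes at or above the minimum level. Its gene lies on chromosome 10 (75397830 to 75401764, minus strand). ZNF703, on chromosome 8, had 2566 per kb. These 2 genes encode the NET family of transcriptional co-repressors, whose single atypical finger departs from the C2H2 spacing. Their proteins were 54.3% identical and neither held a C2H2 match. ZNF503 overlapped the antisense gene ZNF503-AS2 by 246 bases on the opposite strand. Of its 50-base words, 9.19% also occurred in the canonical transcripts of other genes, whereas ZNF703 shared none with those.

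Some members are known for work in translation or mitosis. ZNF593, a factor of large ribosomal subunit biogenesis on chromosome 1, had 4536 per kb from a transcript of 638 bases and 1 finger match. Its level is uncertain, since 41.3% of its 50-base words were shared, mostly with its antisense neighbour ZNF593OS. ZNF598, the ubiquitin ligase that marks collided ribosomes, had 2304 per kb and 1 finger match, and 16.2% of its 50-base words were shared. ZNF622, which helps mature the large ribosomal subunit, had 573 per kb. ZNF207, known as BuGZ for its part in spindle assembly and kinetochore attachment, had 1555 per kb over its canonical transcript of 13740 bases. Divided by its coding length of 1482 bases instead, ZNF207 stood at 14413 per kb and passed ZNF503 at 13589. ZNF207 was thus among the highest members on either scale, and its exact rank depended on the length used.

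Among the members with longer strings of fingers, ZNF768 was highest at 5017 per kb, with 10 fingers and a transcript GC content of 62.7%. ZNF358 had 2659 per kb with 9 fingers, and 25.1% of its 50-base words were shared with other transcripts. ZNF511 had 2629 per kb with 3 fingers, and 44.3% of its words were shared, mostly with the read-through gene ZNF511-PRAP1. ZNF384, a transcription factor known as a fusion partner in leukaemia, had 1549 per kb and 8 fingers, and 16.1% of its words were shared. ZNF689, at 1263 per kb and 10 fingers, was the highest member with a KRAB domain and the last of the top 10.

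The 5 lowest members per kb had very long canonical transcripts, and which transcripts their reads came from was not tested. ZNF268 had 39.4 per kb over 13390 bases, ZNF652 43.5 over 11628 and ZNF618 57.1 over 9363. ZNF778 followed with 59.7 per kb over 11192 bases and ZNF236 with 65.5 over 10157. The median transcript length over all members was 3744 bases, against 3402 bases for all genes at or above the minimum and 3960 for the ZNF genes below it.

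Members with well known roles in transcription ran from 111 to 849 per kb, beside ZNF384 above. ZNF687 had 849 per kb and ZNF592 had 585, and both are partners of the chromatin reader ZMYND8. ZNF410, an activator of CHD4 transcription, had 830 per kb, but 92.4% of its 50-base words also occurred in other annotated genes, mostly in an unnamed one, so its level cannot be assigned to it alone. ZNF143, an activator that binds many promoters, had 348 per kb, and its paralog ZNF76 had 641. ZNF263, which carries a SCAN domain, had 342 per kb, with 49.1% of its words shared. ZNF281 had 297 and its relative ZNF148 had 116. ZNF274, which brings SETDB1 to the 3′ ends of ZNF genes, had 257 per kb. ZNF451, a SUMO ligase, had 193 and ZNF24 had 111.

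ZNF217, an oncogene of breast cancer, stood just below the minimum at a mean level of 489. ZNF91, a KRAB protein that represses SVA transposons, had a mean level of 297 (55.1 per kb). ZNF445, a guardian of genomic imprints, had 278 (15.2 per kb). ZNF93 was not analysed here.

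KRAB proteins, the largest class of the family, were the minority among the well expressed genes. A KRAB A-box match, with at most 1 mismatch at 8 fixed residues, was found in 31 of 125 members (24.8%). Among the ZNF genes below the minimum that have an annotated protein, 256 of 347 had one (73.8%). Put the other way round, 31 of 287 KRAB genes (10.8%) reached the minimum, and 94 of 185 ZNF genes with no KRAB match (50.8%) did. Over all protein-coding genes the share was 49.8%. The share of ZNF genes with no KRAB match thus lay within 1 percentage point of that of protein-coding genes at large, and these shares are a description with no test.

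The KRAB share was largest from 10 to 100 and smaller in each bin above that. It was 78.4% of the 51 genes under 10, 82.5% of the 103 genes from 10 to 100, and 74.0% of the 100 genes from 100 to 250. It was 61.3% of the 93 genes from 250 to 500, 39.3% of the 56 genes from 500 to 1000, and 13.0% of the 69 genes at 1000 or more. Within the members, the median level per kb was 250 for the 31 KRAB genes and 345 for the other 94, a log2 difference of -0.46. With a minimum of 250 the difference was -1.03. The levels ran from 39.4 to 1263 per kb with KRAB and from 43.5 to 8217 without, so the groups overlapped but the 9 highest members all lay above the KRAB range.

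Besides ZNF689, ZNF777 on chromosome 7 was the other KRAB member above 1000 per kb, at 1235. ZNF317 had 682 and ZNF74 562. Some KRAB domains escape the pattern. ZNF282, a neighbour of ZNF777 with 985 per kb, differed at 2 of the 8 fixed residues and was counted without KRAB. ZNF205 and ZNF184 also differed at 2 and were counted in the same way. How many KRAB domains lie among the genes that differ at more residues was not tested. The KRAB counts and shares given here are therefore those of matches to the pattern. A SCAN match was found in 9 members (7.20%), against 14 of 347 ZNF genes below the minimum (4.03%). In ZNF274 and ZNF446 both domains were matched.

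The genes for the partners of KRAB repression were also read at the RNA level. All 17 listed partner genes reached the minimum level and 16 reached 1000. Of all protein-coding genes 49.8% reached the minimum, and 6038 of the 23292 genes of all kinds reached 1000. TRIM28, the co-repressor that KRAB binds, had a mean level of 41627 and 12374 per kb, more than any member on either scale. SETDB1, the H3K9 methyltransferase, had 701 per kb and its cofactor ATF7IP 382. The HP1 genes spanned a wide range, with 1028 per kb for CBX3, 652 for CBX1 and 55.4 for CBX5. The NuRD complex genes HDAC1 (4205 per kb), CHD4 (3213), HDAC2 (1653) and CHD3 (1239) stood high. The HUSH complex genes MPHOSPH8 (400 per kb), PPHLN1 (1608) and FAM208A, also known as TASOR (381), and the HUSH-associated MORC2 (714) were also present. DNMT1, the maintenance DNA methyltransferase, had 3008 per kb, its cofactor UHRF1 352, and the remodeller SMARCAD1 574. The median over the list was 714 per kb, against 557 for all genes at or above the minimum and 310 for the members.

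The members' proteins had a lower median number of fingers than those of the rest of the family. A C2H2 match (cysteines 2 to 4 residues apart, 12 residues, then histidines 3 to 5 residues apart) was found in 122 of 125 members, which together held 1113 fingers. The median was 8 fingers per member, against 11 in the ZNF genes below the minimum. No match was found in ZNF503, ZNF703 and ZNF330, a nucleolar protein with 641 per kb. ZNF142 had the most fingers, 36, at 399 per kb. ZNF462 had 33 at 68.9 per kb, ZNF646 had 30 at 288 per kb, ZNF236 had 30 and ZNF268 had 24. This order turned under a stricter pattern that also fixes the spacing and the residues between the zinc-binding ones. It left 8 fingers in ZNF142, 1 in ZNF462 and 12 in ZNF646, and 24 in ZNF268 and 23 in ZNF236.

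Level per kb was lower in members with more fingers. The median was 2566 per kb for the 3 members with no match, 360 for the 35 with 1 to 4 fingers and 348 for the 41 with 5 to 9. It was 252 for the 26 with 10 to 14 and 210 for the 20 with 15 or more. Spearman's rho between finger number and level per kb was -0.26 over the 125 members. The part that transcript length has in this was not tested. All fingers lay in the last exon in 74 of 125 members and in 319 of 347 ZNF genes below the minimum. At least 3 copies of the conserved linker were found in 39.2% of members and 83.3% of the genes below. Fingers in 1 closing exon were thus the more common form in both sets, and took a smaller share of the members than of the genes below.

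The well expressed ZNF transcripts were not mostly GC-poor. Their median GC content was 52.3%, against 48.2% for all genes at or above the minimum and 42.4% for the ZNF genes below it. The place above all genes depends on the minimum. With a minimum of 250 the median was 46.4% for 218 ZNF genes and 48.1% for all genes, and with a minimum of 1000 it was 54.1% for 69 ZNF genes and 48.7% for all genes. At the minimum of 500, GC content was under 45% in 45 of 125 members (36.0%), from 45 to 55% in 27 (21.6%) and 55% or more in 53 (42.4%). Of all genes at or above the minimum, 38.5% were under 45% and 29.8% were at 55% or more. Of the ZNF genes below the minimum, 70.7% were under 45% and 9.12% were at 55% or more. The remark that the transcripts are mostly GC-poor thus describes the part of the family that did not reach the minimum. The histograms show the members spread over the range, with the fullest bins of 2% starting at 40% (14 members), 62% (13) and 36% (12), and a single hump for the genes below.

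**Figure D2:**
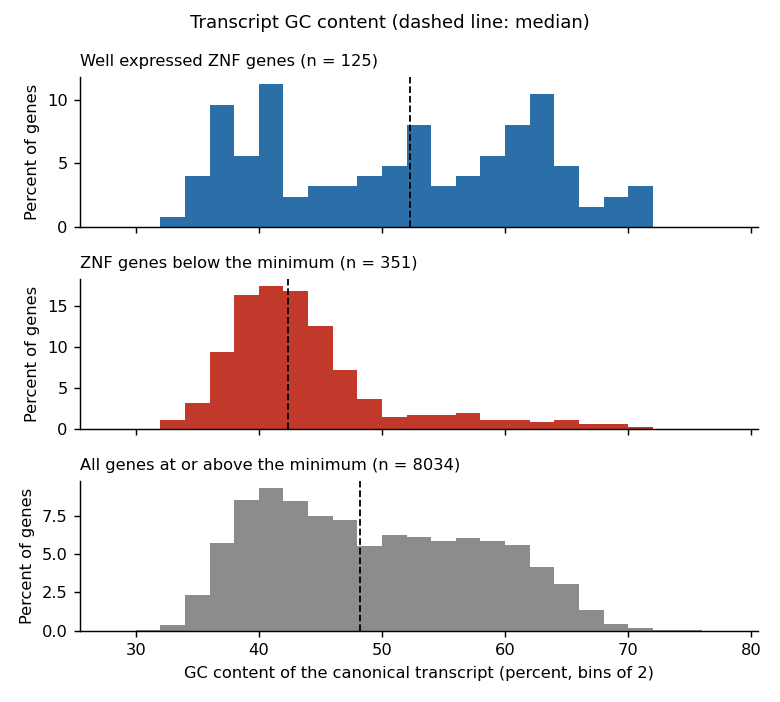
GC content of the canonical transcript in percent, in bins of 2 (horizontal axis), and the percent of genes in each bin (vertical axis, a separate scale in each panel) for 125 well expressed ZNF genes (top), 351 ZNF genes below the minimum (middle) and 8034 genes of all kinds at or above it (bottom). Dashed lines mark the medians, 52.3%, 42.4% and 48.2%.

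The difference lay in both the coding sequence and the 3′ UTR. The median coding GC content was 54.7% in the members, 51.7% in all genes at or above the minimum and 42.7% in the ZNF genes below. The 3′ UTR medians were 46.3%, 42.1% and 38.6% in the same order. Coding and 3′ UTR GC content went together over the 125 members (Spearman's rho 0.84). ZNF678 had the lowest transcript GC content, 34.0%, and ZNF865 the highest, 70.9%. AU-rich elements, which many unstable mRNAs carry in the 3′ UTR, were counted on the transcript strand as the pentamer ATTTA. The members had a median of 1.65 per kb of 3′ UTR, all genes at or above the minimum 1.73 and the ZNF genes below it 2.25. Members with under 45% GC had 3.26 per kb. A pair of such pentamers overlapping by 1 base stood in the 3′ UTR of 16 of 125 members (12.8%), 7.10% of the protein-coding genes at or above the minimum and 11.0% of the ZNF genes below it.

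The share of ZNF genes that reached the minimum was highest at high GC content, and that of all genes was highest at low GC content. For the family it was 19.2% of 130 ZNF genes under 40% GC, 12.9% of 232 from 40 to 50% and 61.4% of 114 at 50% or more. Over all genes in the same bins it was 50.3%, 45.9% and 42.1%. KRAB and GC content overlap, so the shares are also given within each kind. Among KRAB genes, 14 of 216 under 45% GC (6.48%) and 17 of 71 at 45% or more (23.9%) reached the minimum. Among ZNF genes with no KRAB match the counts were 31 of 73 (42.5%) and 63 of 112 (56.3%). Within either GC class the KRAB genes had the smaller share, and within either kind so did the GC-poor genes.

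Among the members themselves, level per kb was higher at higher GC content (Spearman's rho 0.44 over 125 genes, and 0.25 over 8034 genes of all kinds). The median level was 217 per kb in the 45 members under 45% GC, 235 in the 27 from 45 to 55% and 454 in the 53 at 55% or more. Transcript length moved with it, with medians of 4864, 4797 and 3087 bases. For mean level without division by length, rho was 0.16, and the medians were 1008, 835 and 1309. The part that GC bias of the sequencing has in these values was not tested. ZNF207 at 36.8% GC, ZNF638 at 39.6% (938 per kb) and ZNF146 at 38.9% (714 per kb) were GC-poor members with high levels.

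**Figure D3:**
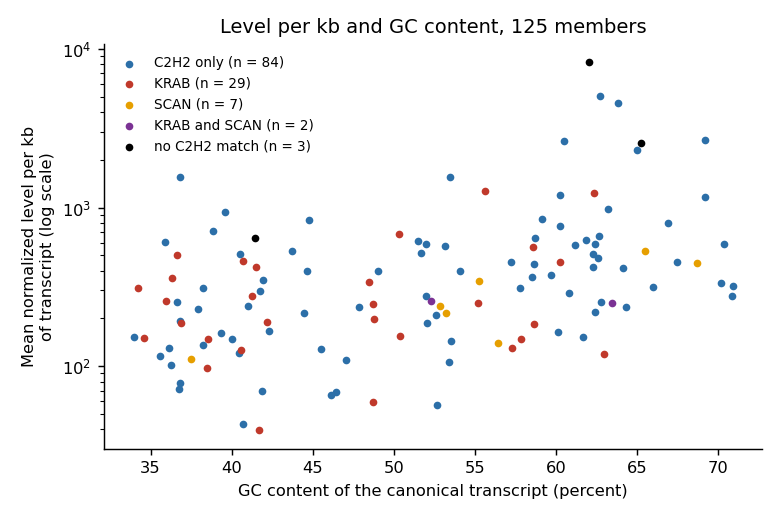
Mean normalized level per kb of canonical transcript (vertical axis, log scale) against GC content of that transcript in percent (horizontal axis) for the 125 members, one point each. Colours give the domains matched in the protein. The 7 highest points, at 2304 per kb or more, lie at 60.5% GC or more, and the KRAB genes (red or purple) lie between 34.2% and 63.5% GC.

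The members were less concentrated on chromosome 19 than the rest of the family. Chromosome 19 held 26 of 125 members (20.8%), 204 of 351 ZNF genes below the minimum (58.1%) and 491 of 8034 genes of all kinds at or above it (6.11%). Of the KRAB genes of chromosome 19, 8 of 190 (4.21%) reached the minimum, against 23 of 97 (23.7%) on other chromosomes. For ZNF genes with no KRAB match the shares were close, 18 of 38 on chromosome 19 (47.4%) and 76 of 147 elsewhere (51.7%). The 26 members on chromosome 19 had a median GC content of 59.0% and a median level of 383 per kb. The 99 others had 51.7% and 288 per kb. Chromosome 16 held 16 members (12.8%), chromosome 7 held 12 (9.60%) and chromosome 1 held 11 (8.80%).

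**Figure D4:**
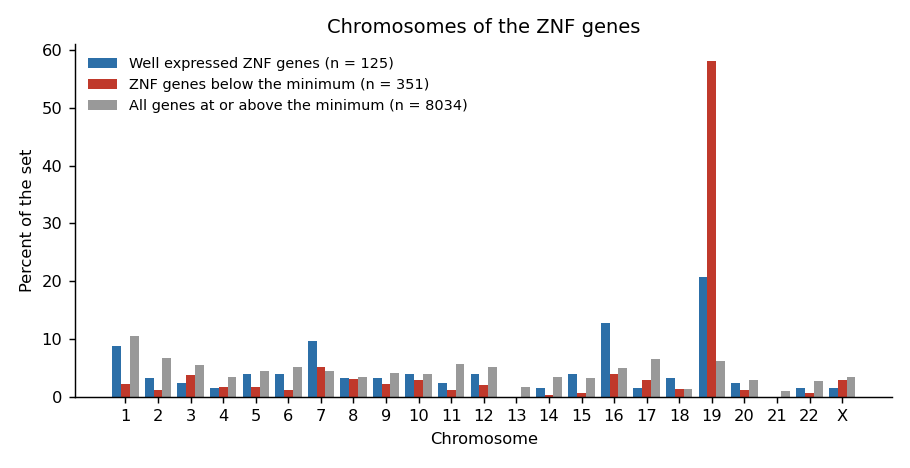
Percent of each set (vertical axis) on each chromosome (horizontal axis) for 125 well expressed ZNF genes (blue), 351 ZNF genes below the minimum (red) and 8034 genes of all kinds at or above it (grey). Chromosome 19 holds 58.1% of the red set and 20.8% of the blue, and chromosomes 16 and 7 hold larger shares of the blue set than of the other sets.

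Members within 250 kb of each other formed 5 clusters of 3 or more, with 24 members in all. The largest, on chromosome 16 (30378106 to 30787205), held 9 ZNF genes, of which ZNF48, ZNF771, ZNF768, ZNF764, ZNF689 and ZNF629 were members. Levels in it differed widely between neighbours. ZNF768 had 5017 per kb, ZNF747 next to it 84.6 and ZNF785 8.74, the last 2 both KRAB genes below the minimum. All 9 genes had a GC content of 55.6% or more.

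On chromosome 7 (149126416 to 149497817), ZNF398, ZNF282, ZNF783, ZNF777 and ZNF746 reached the minimum, and ZNF212 just missed it. Their levels ran from 147 per kb for ZNF783 to 1235 for ZNF777. A KRAB match was found in 4 of the 5 members, all but ZNF282. On chromosome 19 (55476617 to 55645623), ZNF628, ZNF579, ZNF865, ZNF580 and ZNF581 were members, all without a KRAB match and all at 61.8% GC or more. ZNF580 was highest there at 1170 per kb and ZNF628 lowest at 279.

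A second cluster on chromosome 16 (3112560 to 3409364) held ZNF205, ZNF213, ZNF263 and ZNF174, the last 3 with a SCAN match, at 217 to 800 per kb. Near the end of chromosome 19 (58183029 to 58481230), ZNF274, ZNF584, ZNF324 and ZNF446 were the members among 10 ZNF genes, at 130 to 257 per kb. All 4 had a KRAB match, which makes them 4 of the 8 well expressed KRAB genes of that chromosome. ZNF544, which lies next to ZNF274, had a mean level of 1.96.

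Few members were close relatives. Over 4956 aligned pairs of similar protein length the median identity was 18.4%, and 9 pairs reached 50%. ZNF33A and ZNF33B, on either arm of chromosome 10, were 88.7% identical, with 148 and 97.7 per kb. They shared 7.02% and 8.01% of their 50-base words, each mostly with the other, so reads from those stretches cannot be assigned to either. ZNF90 and ZNF92 were 65.9% identical at 504 and 309 per kb, and ZNF92 and ZNF714 63.5% at 309 and 78.4 per kb. ZNF90 and ZNF714 were 54.0% identical. All 3 have GC-poor transcripts (36.6%, 34.2% and 36.8% GC for ZNF90, ZNF92 and ZNF714), and ZNF90 stood 6.43-fold above ZNF714 in level per kb of transcript and 2.54-fold above it per kb of coding sequence. ZNF92 stood 3.95-fold and 1.35-fold above ZNF714 on the same scales. Without SDs by sample, whether paralogs differ beyond their spread was not analysed here.

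Sequence shared with other transcripts was small in most members. Of the 125 members, 50 shared no 50-base word with the canonical transcript of any other annotated gene. With those 50 included, 67 shared under 1%, and the median was 0.583%. Further transcripts of the other genes were not searched. In 21 members 10% or more was shared, the highest being ZNF410. Overlap with a listed gene on the opposite strand reached 100 bases in 12 members, with the longest stretches in ZNF740 (1469 bases with ITGB7), ZNF142 (1438 with PLCD4) and ZNF276 (1328 with FANCA). The libraries keep strand, but whether the counting used it is not given in the sources used here.

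The promoters of the members differed less than their transcripts. Promoter windows from RefSeq (250 bases before the start and 50 after, GRCh38) matched 109 of 125 members. Their median GC content was 64.3%, against 66.0% for all genes at or above the minimum and 60.0% for the ZNF genes below. Members with transcripts under 45% GC had promoters at 62.7%, and those at 55% or more had 68.3%. The Sp1-type GC box GGGCGG, on either strand, was found in 67.0% of the members' windows and 61.8% of those of the ZNF genes below the minimum. It was found in 73.1% of the windows of all genes at or above the minimum and 44.6% of all 27305 windows. The sequence CCAAT, the box bound by NF-Y, was found in 34.9% of the members' windows, 38.5% of those of all genes at or above the minimum and 35.7% of all windows. It stood in 14 of 28 windows of KRAB members (50%), 24 of 81 windows of the other members (29.6%) and 53.6% of the 293 windows of ZNF genes below the minimum. These matches are letters in a window and say nothing of binding.

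As a check of the cell line, VIM (mean level 18797), KRT18 (2230) and KRT8 (1488) were well expressed, as were the neurofilament genes NEFM (3786), NEFL (2225) and INA (704) that HEK293 cells are known to express. PAX2, a marker of embryonic kidney, was low at 27.7. The leukocyte marker PTPRC (0.544) and the hepatocyte marker ALB (1.30) were near 0, and the fibroblast collagen gene COL1A1 had 397. HBB was not analysed here.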

How the data were processed

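RNA from 12 HEK293T samples, 3 in each of 4 groups, was sequenced on the DNBSEQ platform. Alignment by the authors used SeqManPro (DNAstar) and GRCh38.p7, and gene levels came from QSeq in ArrayStar. DESeq2 was used to compare each compound with vehicle (version 1.40.1 in the submitters' processing notes, which name GRCh38 and GRCh37 with no role given). The annotation and filters are not given in the sources used here. The deposited signal is the authors' mean, over all 12 samples, of values divided by DESeq2's size factors. This signal was treated here as not scaled to gene length. It was identical in the 3 tables. The methods state that RPKM values entered the fit, yet the sum over genes of level times transcript length in kb was 119 M, where RPKM values would give 1 M. That sum shows only that the values are not plain RPKM. Whether they carry another scaling to length was not tested, and the levels per kb rest on there being none. The other columns hold the authors' own comparisons (fold changes, standard errors, statistics and p-values) and were not used. Levels by sample were not analysed here, so depth, replicate error and tests are absent, and the precision of each mean is unknown.

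Symbols were matched, also through synonyms, to the canonical transcripts of GENCODE 44 (GRCh38), which covered 125 of 125 members, 476 of 477 ZNF genes and 8034 of 8180 genes at or above a mean level of 500. Length, GC content, exons and proteins came from that annotation, and all coordinates are GRCh38. Finger, KRAB and SCAN patterns (the latter with at most 1 mismatch at 10 fixed residues) were searched in the translated proteins, in scripts tested on simulated data. The printed stretches were chosen with members on chromosome 8 left aside. A 50-base word was shared where it occurred, on either strand, in the canonical transcript of another annotated gene. Proteins were aligned globally (gap opening 11, extension 1) with Biopython 1.88 where the shorter was at least 0.5 times as long as the longer. Other steps used pandas 2.3.3 and Python 3.11.15. Named genes were the 10 highest and 5 lowest members per kb, the 5 on either side of the minimum, the 5 with most fingers and those with none, the 5 most identical pairs, and fixed lists of known roles, KRAB partners and cell markers. Cluster neighbours, other KRAB members, overlapping genes and GC extremes were named after their values were seen. The members and lists were chosen with earlier results of these data known. Alternatives were other minimum levels, coding length, stricter and looser patterns, and GC content of the coding sequence or 3′ UTR alone (these GC alternatives, and the GC difference from all genes at other minimums, were chosen after seeing the data).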

Additional observations from a re-analysis of the deposited data

How the results depend on the processing

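The results most open to choice were those set by the minimum level. With a minimum of 250 in place of 500 there were 218 members, 60 of them on chromosome 19, and with a minimum of 1000 there were 69 and 14. The median level per kb of 310 became 565 when levels were divided by coding length, and 46.4 over all ZNF genes with no minimum. With a stricter finger pattern 102 members held a match in place of 122, a change within 1.5 times. The median number of fingers per member under that pattern was 4 in place of 8. Apart from the count of members with a match, these 7 of the 22 alternatives run moved a value by over 1.5 times. Each did so through its own construction (more or fewer genes, a shorter length, a narrower pattern). A further 14 stayed within that range (for the log2 difference, within a 1.5-fold change of the ratio it stands for). In 1 the direction reversed: the members' median transcript GC content was 4.06 percentage points above that of all genes at a minimum of 500 and 5.36 above at 1000, but the difference was -1.64 at 250, where more of the GC-poor family enters (both minimums were added for this difference after seeing the data). The KRAB count was 27 with no mismatch allowed and 34 with 2, and the log2 difference in median level per kb between KRAB members and the others was -0.56 by coding length and -1.03 at a minimum of 250, against -0.46. No paired analysis was possible because the values used are means over all samples. For the same reason the comparison of each compound with vehicle was not run, nor its alternatives (leaving out a replicate, another count test, a replicate block, no filter on low counts). What depth limits is unknown.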

Other observations

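Other zinc finger families with their own symbols gave these counts at the same minimum level of 500. Of the ZBTB genes, which join fingers to a BTB domain, 21 of 41 reached it (51.2%), with a median of 218 per kb among those. Of the KLF genes, a family of transcription factors with fingers at the C-terminal end, 8 of 16 did (50%). Of the ZSCAN genes, which join fingers to a SCAN domain, 1 of 18 did (5.56%), of the ZKSCAN genes 2 of 7 (28.6%) and of the ZFP genes 3 of 15 (20%). The ZNF family stood at 26.2%.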
